A study of Mus musculus with 6 samples.

Results

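Skeletal muscle of leptin-deficient obese mice was compared on 2 arrays, 1 from mice given a bitter melon seed extract (MCSE) and 1 from mice given phosphate-buffered saline (PBS). Both groups were ob/ob mice (B6.V-Lepob/J), in which loss of leptin leads to obesity and insulin resistance. After a fast of 4 h they took MCSE, an aqueous extract of Momordica charantia seeds, or PBS by mouth. An intraperitoneal glucose load of 1 g/kg followed 15 min later, and muscle was taken 4 h after the glucose. The labels name neither the muscle, nor the age or sex of the mice, nor how many mice gave RNA to an array. The muscle arrays were 2 of the 6 one-colour arrays of the series, and the members were all probes at or above the median of the array on at least 1 of them. That left 16073 of 29922 probes (53.7%), of which 12497 carried a gene symbol. Taken by the brightest probe of each gene, 10711 of 16675 genes were measured. With 1 array per group there was no replicate and no test, so each value below compares these arrays and carries no p-value.

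Skeletal muscle takes up much of the glucose that insulin clears from the blood, through the transporter GLUT4. Its fibres come in fast and slow types, each with its own myosin, troponin and tropomyosin genes, and slow fibres rely more on mitochondria. Muscle cells under mechanical, thermal or metabolic stress make chaperones, and stressed or injured muscle makes chemokines that draw in leukocytes.

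Both arrays carried the genes of muscle. The median of the 8 fast-fibre markers was 15.98 with PBS and 15.93 with MCSE, as log2 intensity. The pair correlated at 0.958 over all probes (Pearson r of log2 values), and each array had a median log2 intensity of 8.95. The other arrays enter here only as points of comparison, and their labels were not borne out by their genes. The array labelled MCSE adipose correlated at 0.982 with the one labelled MCSE liver, the PBS adipose array at no more than 0.517 with any other, and kidney genes were bright on both liver-labelled arrays. Those arrays are therefore named by label only. In a whole tissue, fewer cells of a type and less RNA per cell cannot be told apart.

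Differences are log2 MCSE minus log2 PBS, after values below a floor of 214 intensity units (log2 7.74) were raised to it. A difference of 1 is 2-fold, which is what "higher" and "lower" mean in the counts below. Of the kept probes, 709 (4.41%) were higher with MCSE and 324 (2.02%) were lower. Of the genes, 418 (3.9%) were higher and 201 (1.88%) lower, and the median over all of them was -0.05. The middle part of the genes, from the lower to the upper quartile, lay between -0.29 and 0.24, and 44.7% lay above 0. The scatter between probes of the same gene gave an SD per probe of 0.52, close to the SD of 0.55 over all genes, so a single gene near 2-fold stands little apart from probe error. Vgll2, just inside the limit, was at 1.00, and Rsad2, just outside it, at 0.99.

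The filter itself shaped these counts. Of the higher probes, 261 reached the array median on the MCSE array alone, and of the lower probes 82 did so on the PBS array alone. Such a probe is dim on 1 side and had to differ, and a value under 8.95 on either side marks it below. Among the 9512 genes at or above the median on both arrays, 292 (3.07%) were higher and 160 (1.68%) lower. For lists whose count of higher or lower genes differs between the filters, the count over genes above the median on both arrays is given too. Every list count below stands beside these shares over all genes. They are 3.9% higher and 1.88% lower with either array, and 3.07% and 1.68% with both.

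**Figure D1:**
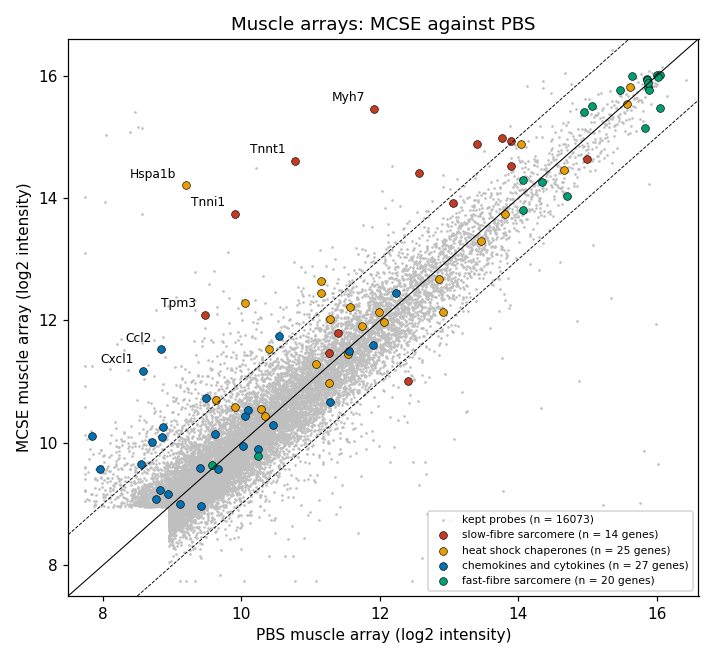
Log2 intensity of each kept probe on the PBS muscle array (x axis) and the MCSE muscle array (y axis), with the brightest probes of 4 gene lists in colour; the solid line marks equality and the dashed lines 2-fold. Tnni1, Tnnt1, Myh7 and Hspa1b lie far above the upper line, and the fast-fibre genes lie within the lines, most of them at the top of the scale. Most higher chemokines and cytokines start in the dim part of the PBS array.

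Slow-fibre contractile genes stood higher on the MCSE array, and fast-fibre genes did not differ by 2-fold. Of 14 measured slow-fibre genes (15 on the array), 8 were higher and 1 lower, the median being 1.13, where 3.9% of all genes were higher. All 14 reached the median on both arrays. Only 1 of them, Myh7b, had 2 or more kept probes, so each of the others rests on a single kept probe. Tnni1 and Tnnt1 encode the slow troponins I and T, which with troponin C make the calcium switch of the thin filament. Tnni1 lay at 9.90 on the PBS array and 13.74 on the MCSE array, a 14.3-fold difference. Tnnt1 lay at 10.77 and 14.61, with the same fold. Myh7, the slow and cardiac myosin heavy chain, lay at 11.92 and 15.46, and its second probe, dim on both arrays, gave 8.40 and 8.56. Tpm3, the slow tropomyosin, went from 9.47 to 12.09 between the arrays, a 6.16-fold difference.

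The remaining slow-fibre genes were already bright with PBS and differed less. Csrp3, a muscle LIM protein of the Z-disc, lay at 12.56 and 14.40. Myoz2, the slow calsarcin that tethers calcineurin, lay at 13.41 and 14.88, Myl3, the slow essential light chain, at 13.76 and 14.97, and Atp2a2, the slow calcium pump, at 13.89 and 14.94. Below 2-fold were Tnnc1 (0.85), Myl2 (0.62), Casq2 (0.41), Myh7b (0.19) and Myot (-0.35). The other kept probes of Myh7b, a slow myosin relative, were at 1.04, 0.10 and -0.21. Pln, phospholamban, the brake of the slow calcium pump, was the member on the other side, at 12.41 with PBS and 11.01 with MCSE. The pump and its inhibitor thus differed in opposite directions on this pair of arrays.

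The fast-fibre list held 20 measured genes, of which 0 were higher and 0 lower, with a median of -0.01. The steepest difference was that of Tnnt3, fast troponin T (15.83 and 15.14, -0.69), followed by Mylk2, the kinase of the fast regulatory light chain (14.70 and 14.03), and Myh4, the IIb myosin heavy chain (16.05 and 15.48). Myh2, the IIa heavy chain, lay at 15.47 and 15.76, and Pvalb, the calcium buffer of fast fibres, at 15.64 and 15.99. Many of these values lie close to the highest log2 value of any array, 16.41, where a further difference could hardly show. The summed linear intensity of the 8 fast markers was 500126 with PBS and 461591 with MCSE, a ratio of 0.92, and that of the 7 slow markers 45034 and 159180, a ratio of 3.53. Which muscle or which part of it gave each RNA is not in the labels, and its part in the slow-fibre difference was not tested.

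**Figure D2:**
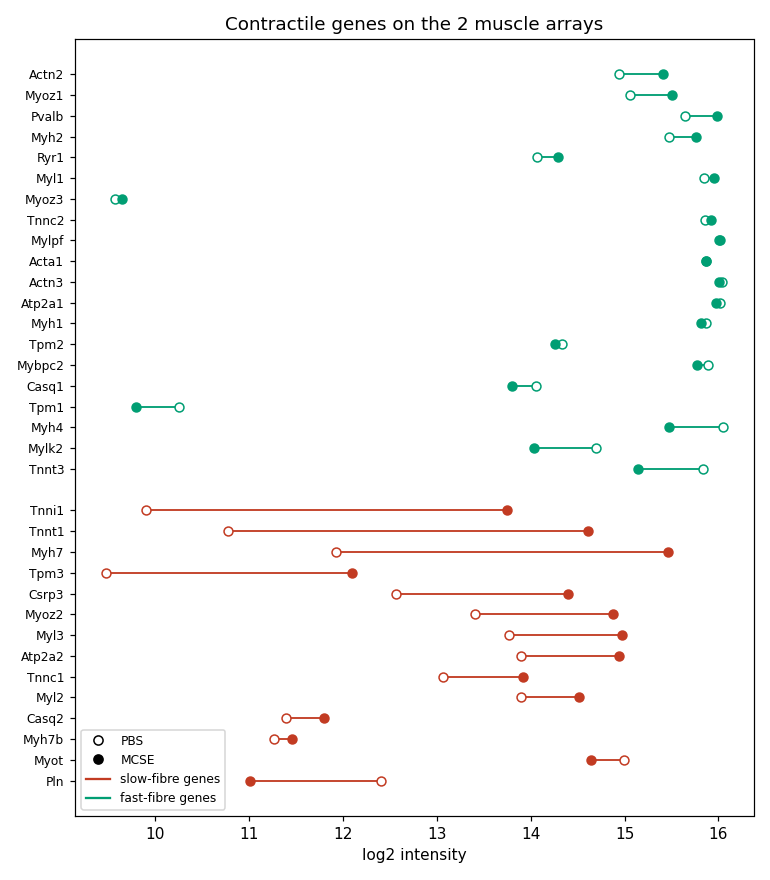
Log2 intensity (x axis) of the measured slow-fibre genes (red) and fast-fibre genes (green), each by its brightest probe, with an open circle for PBS and a filled circle for MCSE. Tnni1, Tnnt1, Myh7 and Tpm3 show the longest lines to the right, Pln runs to the left, and the fast-fibre lines are short on either side.

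Genes of sarcomere assembly and the Z-disc leaned towards MCSE as well. Of 30 measured, 4 were higher and 1 lower, the median being 0.20, and 21 lay above 0. Of the 28 above the median on both arrays, 4 were higher and 0 lower. Xirp1, an actin-binding protein of sites of myofibril repair and of the intercalated disc, lay at 12.17 with PBS and 14.53 with MCSE, a 5.12-fold difference. Kbtbd5 (now Klhl40), which stabilises thin filament proteins, lay at 12.08 and 13.83. Lmod2, an actin nucleator that sets thin filament length, lay at 12.29 and 13.87. Flnc, muscle filamin, lay at 13.87 and 15.18 on its brightest probe, but at 10.50 and 10.001 on a second kept probe, which points the other way. Smyd1, a methyltransferase and chaperone of myosin assembly, was lower on 1 probe only, as described with the steepest probes below.

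Excitation-contraction coupling, the chain from membrane depolarisation to calcium release, had 20 measured genes with 0 higher and 3 lower (median -0.04), or 0 and 2 of 19 among genes above the median on both arrays. Kcna7, a voltage-gated potassium channel, lay at 10.73 with PBS and 8.65 with MCSE, and it reached the median on the PBS array only. Kcnj11, the pore of the ATP-sensitive potassium channel that ties membrane potential to energy state, lay at 10.61 and 9.32. Jph2, junctophilin 2, which holds the tubule and the calcium store together, was lower on both kept probes, at 10.26 and 9.15 on the brighter one and at 9.92 and 9.18 on the other. The dystrophin complex, which links the cytoskeleton to the matrix, had 1 of 14 genes lower and 0 higher, but 11 of 14 below 0 and a median of -0.43, the lowest median of the 45 pathway lists. With the mean over the kept probes of each gene this median was -0.21 and 4 pathway lists lay lower, among them myogenic regulators at -0.23. Dtna, dystrobrevin alpha, lay at 14.33 and 10.57 on its brightest probe and at 10.77 and 10.90 on its second. Within 2-fold, Dag1, dystroglycan, lay at -0.84, Nos1, neuronal nitric oxide synthase, at -0.80 and Sntb1, a syntrophin, at -0.79, while Dmd itself was at -0.19 and Sgca at 0.28. On second kept probes Dag1 was at -0.84 and Nos1 at -0.45, but Sntb1 was at 0.41, on the other side. Each of those values is within 2 SDs of a single probe.

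Of 18 measured myogenic regulators, 2 were higher and 3 lower, with a median of -0.23. Myf6, the myogenic factor of mature fibres, lay at 13.38 with PBS and 14.39 with MCSE, and Vgll2, a cofactor of TEAD proteins, at 8.999 and 10.004. Mef2c, a transcription factor of muscle gene programmes, lay at 13.80 and 12.43. Nfatc1, the calcineurin-regulated factor tied to slow-fibre genes, lay at 11.92 and 10.75, and its second kept probe at 9.92 and 9.87. Six4 lay at 11.46 and 9.32 and its second probe at 10.10 and 10.001. For Nfatc1 and Six4, then, the probes of 1 gene did not give the same difference. Of the 8 listed regulators that were not above the filter, 2 were the satellite cell factors Pax7 and Myf5. No gene of the neuromuscular junction and denervation list was past 2-fold (0 of 13), nor of the autophagy and lysosome list (0 of 19). Among ubiquitin ligases and atrophy genes, 1 of 17 was lower, Cbl.

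Chaperones of the heat shock response were higher in 6 of 25 measured genes and lower in 0, with a median of 0.20. All 25 reached the median on both arrays. Hspa1b, an inducible Hsp70, lay at 9.19 on the PBS array and 14.21 on the MCSE array, a 32.3-fold difference. Hspa1b has a near-identical neighbour, Hspa1a, so the reading of either can hold both, and Hspa1a was not above the filter. Dnajb4, a J-domain partner of Hsp70, lay at 10.05 and 12.29, and Hsp90aa1, the inducible Hsp90, at 11.15 and 12.65. A second kept probe of Hsp90aa1 gave 11.40 and 12.25, in the same direction. Bag3, which passes damaged sarcomere proteins to autophagy, lay at 11.15 and 12.45, Dnaja4 at 10.40 and 11.53, and Dnajb1 at 9.64 and 10.70. The constitutive members stayed close: Hspa8 differed by -0.04, Hsp90ab1 by -0.21, and the endoplasmic reticulum chaperones Hspa5 and Hsp90b1 by -0.19 and -0.09. Among small heat shock proteins, Hspb7 was at 0.85, Hspb2 at 0.75, Cryab at 0.21 and Hspb8 at -0.77. On the MCSE liver-labelled array Hspa1b lay at 11.28, below the MCSE muscle array.

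The promoters of the higher chaperones were read to set sequence beside these values. Heat shock factor binds inverted repeats of a short element, and the core GAANNTTC was searched on both strands in the 250 bases upstream of each start site. It was present in 6.69% of all 32851 mouse promoters of the RefSeq table (GRCm38.p6). Of the 6 higher chaperones, 5 had a promoter in the table and 2 of these held the core, Hspa1b and Dnaja4. A gene counted when any of its promoters held a match, while the shares here and below are over single promoters. The promoters of Hspa1b and Dnaja4 were chosen for printing after the matches were seen. The last 150 bases before the start site follow, 5′ to 3′, with the core in capitals. Dnaja4 holds 2 copies and has 2 promoters in the table, of which 1 is shown. No share was taken over the chaperones that were not higher, so the matches do not bear on the difference between the arrays. The letters describe the window and say nothing of factor binding in these samples.
Hspa1b, chr17:34959239-34959388, strand -: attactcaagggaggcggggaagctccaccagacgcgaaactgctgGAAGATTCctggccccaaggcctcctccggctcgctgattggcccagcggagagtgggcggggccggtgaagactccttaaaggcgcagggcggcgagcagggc
Dnaja4, chr9:54699409-54699558, strand +: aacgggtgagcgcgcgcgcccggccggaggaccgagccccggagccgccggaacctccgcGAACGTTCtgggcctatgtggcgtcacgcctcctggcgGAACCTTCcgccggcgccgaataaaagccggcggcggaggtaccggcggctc

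The unfolded protein response, the counterpart of this system in the endoplasmic reticulum, had 0 of 22 genes higher and 1 lower. That gene was Chac1, a glutathione-degrading enzyme, at 12.44 with PBS and 11.12 with MCSE. Of 27 genes of the NRF2 and antioxidant list, 2 were higher and 1 lower (median -0.02). Srxn1, sulfiredoxin, which repairs oxidised peroxiredoxins, lay at 10.89 and 12.52, and its other kept probes at 11.03 and 12.29 and at 10.47 and 10.87, all above 0. Slc7a11, the cystine transporter, lay at 9.84 and 10.85, with its dim probes near 0. Txnrd1, thioredoxin reductase, lay at 12.42 and 10.65. Of 24 hypoxia genes, 1 was higher and 1 lower, and of the 23 above the median on both arrays 0 and 1. Ankrd37 lay at 8.10 and 9.27, and Ddit4, an inhibitor of mTORC1, at 14.30 and 12.82. Of 32 proteasome subunits, Psma4 alone passed 2-fold, at 12.17 and 10.75.

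Immediate early genes, switched on within minutes of many stimuli, split in direction. Of 29 measured, 6 were higher and 1 lower, the median being 0.13, and of the 26 above the median on both arrays 5 were higher and 1 lower. Atf3, a repressive stress factor, lay at 8.77 with PBS and 12.17 with MCSE, a 10.5-fold difference, and it reached the median on the MCSE array only. Rcan1, a feedback inhibitor of calcineurin, lay at 12.04 and 14.11. Myc lay at 9.76 and 10.999 and its second probe at 9.49 and 9.77. Cyr61, a secreted matrix signal, lay at 11.91 and 13.03 and its second probe at 10.53 and 11.28. Fos lay at 10.83 and 11.95, with a dim second probe at 8.52 and 8.497, and Btg2, an antiproliferative factor, at 12.22 and 13.28. Egr1 was lower, at 11.36 and 9.44, and Nr4a1, an orphan nuclear receptor, was at -0.87. Junb (-0.02), Dusp1 (-0.10) and Klf4 (0.08) were near the median of all genes, and Jun (-0.38) lay below the lower quartile of all genes, -0.29. Fos and Egr1, often listed together, stood on opposite sides here.

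The chemokine list also holds cytokines that are not chemokines, such as Csf3 and Il18. Of the lists it had the most higher genes by number: 10 of 27 measured were higher and 0 lower, with a median of 0.38. Over all genes 3.9% were higher, and the smaller slow-fibre list had 8 of 14. Most of the higher genes of the chemokine list rested on dim PBS values. Of the 27 genes, 16 reached the median on both arrays, and of these 2 were higher, Ccl9 (10.54 and 11.75) and Csf3 (9.49 and 10.73), with a median of -0.065. Over all genes above the median on both arrays, 3.07% were higher. The other 8 higher genes passed the filter through the MCSE array only, so their direction was fixed by the filter. Among them, Ccl2, the main attractant of monocytes, lay at 8.85 with PBS and 11.53 with MCSE, a 6.43-fold difference. Cxcl1, which attracts neutrophils, lay at 8.58 and 11.17, and Ccl7, a neighbour of Ccl2 in function, at 7.84 and 10.11. Cxcl2 lay at 7.96 and 9.58, Il18 at 8.87 and 10.26, Ccl5 at 8.71 and 10.02, Cxcl10 at 8.85 and 10.09 and Ccl12 at 8.56 and 9.66. All 8 were below the array median of 8.95 with PBS and above it with MCSE. Tnf (11.55 and 11.49) and Il1b (9.40 and 9.58), the upstream cytokines, were apart by no more than the SD per probe, and Cxcl12, a homeostatic chemokine, was at -0.61. Il6, Il10, Ccl3, Ccl4 and Cxcl13 were not above the filter.

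Genes of NF-kB and cytokine feedback gave 3 of 17 higher and 0 lower, with a median of 0.13. Of the 13 above the median on both arrays, 2 were higher. Socs3, which damps cytokine receptors and the insulin receptor, lay at 10.49 with PBS and 12.46 with MCSE. Ptgs2, the inducible cyclooxygenase, lay at 7.92 and 9.55 and its dim second probe at 8.16 and 8.61. Cd44, a hyaluronan receptor, lay at 9.05 and 10.36, with dim probes at 0.01 and 0.09. The interferon response had 0 of 21 genes past 2-fold and a median of 0.03, and complement and acute phase genes 0 of 19 and 0.14.

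The same chemokines were brighter on the MCSE array labelled liver than on the MCSE muscle array: Ccl2 lay there at 14.16, Cxcl1 at 14.66, Ccl7 at 12.90 and Cxcl2 at 12.90. Ccl5 (8.78) and Il18 (8.90) were dimmer there than on the MCSE muscle array. Kidney genes were bright on that array. In muscle, 3 of 18 measured kidney genes were higher and 0 lower, with a median of 0.44 and 5 below 0. Of the 14 above the median on both arrays, 3 were higher, with a median of 0.30. Kap, an androgen-regulated kidney transcript, lay at 9.61 and 12.81 in muscle, and at 16.07 and 16.05 on the liver-labelled pair. Slc34a1, the phosphate transporter of the proximal tubule, lay at 9.37 and 10.49 and Fxyd2, a sodium pump subunit, at 11.70 and 12.84. Leaving out Pvalb, which fast fibres make, the 23 kidney genes summed to 18739 with PBS and 31448 with MCSE, a ratio of 1.68. The difference between these muscle sums was set mainly by Kap and Fxyd2. On the liver-labelled pair the 23 genes summed to 159757 and 273682. The endocytic receptors Lrp2 and Cubn were at the floor with PBS and at 8.18 and 7.79 with MCSE. The part of kidney RNA in the chemokine difference was not tested.

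Leukocyte markers were summed beside the chemokines. The 18 macrophage genes summed to 27559 with PBS and 33377 with MCSE, a ratio of 1.21, with 0 of 16 measured genes past 2-fold and a median of 0.34. The 10 neutrophil genes summed to 9810 and 13788 (1.41), with a median of 0.35 over 7 measured genes and S100a9, a calcium-binding protein of neutrophils, at 9.58 and 11.06. Hepatocyte genes ran the other way as a sum, 19163 and 16123 (0.84), set mainly by Alb, serum albumin, at 12.35 and 10.44. Fat-cell genes without Car3, which muscle also makes, summed to 108887 and 93730 (0.86), endothelial genes had a ratio of 0.90 and fibroblast genes 0.88. For fat-cell and fibroblast genes the sums and the single genes parted. Of the fat-cell genes with Car3, 9 of 12 lay above 0 (median 0.27), and of the fibroblast genes 8 of 12 (median 0.26). Of 11 endothelial genes, 3 lay above 0 (median -0.18). The part of these cells in the results was not tested.

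Several motifs were searched in the promoters of the higher chaperones and of the higher genes of the chemokine list, 7 in all. A promoter was in the table for 5 chaperones and for 6 genes of the chemokine list. The cyclic AMP response element (TGACGTCA), the canonical E-box (CACGTG) and the serum response CArG box matched 0 of these 5 and 0 of these 6. The antioxidant response element core (TGACNNNGC) matched 1 of each, Dnajb1 and Cxcl10, and the MEF2 site 1 gene of the chemokine list, Il18. The heat shock core matched 0 of the 6 genes of the chemokine list and the kappa B site 0 of the 5 chaperones. Shares over all promoters were 1.55%, 6.02%, 1.47%, 10.2% and 2.92% for the cyclic AMP element, the E-box, the CArG box, the antioxidant core and the MEF2 site. A fixed set of 8 genes was searched too, namely Hspa1b, Ccl2, Cxcl1, Atf3, Dbp, Tnni1, Tnnt1 and Myh7, of which 7 had a promoter. There the heat shock core matched Hspa1b alone, the kappa B site Cxcl1 alone and the MEF2 site Atf3 alone. The other motifs matched none of this set.

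A kappa B site, the motif that NF-kB binds, was present in the same 250-base windows of 3.9% of all promoters. Of the 10 higher genes of the chemokine list, 6 had a promoter in the table and 4 held the site: Ccl9, Cxcl1, Cxcl2 and Cxcl10. Cxcl1, Cxcl2 and Cxcl10 passed the filter through the MCSE array only, so the filter fixed their direction. No share was taken over the genes of the chemokine list that were not higher, so these matches do not bear on the difference between the arrays. The 150 bases before the start sites of Cxcl1 and Cxcl2, chosen after the matches were seen because both neighbours hold the same match, follow with the site in capitals. In each, overlapping matches on both strands form 1 block. These letters describe the window and say nothing of factor binding in these samples.
Cxcl1, chr5:90891095-90891244, strand +: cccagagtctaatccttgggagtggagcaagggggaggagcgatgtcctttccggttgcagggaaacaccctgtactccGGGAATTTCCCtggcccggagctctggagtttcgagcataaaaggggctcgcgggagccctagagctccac
Cxcl2, chr5:90903749-90903898, strand +: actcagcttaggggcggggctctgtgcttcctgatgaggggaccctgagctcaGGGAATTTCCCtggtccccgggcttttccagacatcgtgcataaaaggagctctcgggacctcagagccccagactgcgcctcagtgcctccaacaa

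Genes of insulin action differed mostly by less than 2-fold. The 16 measured genes of the insulin action list, which holds the receptor, its direct effectors and insulin-regulated metabolic genes, had a median of -0.39, with 11 below 0, 1 higher and 2 lower. With the mean over the kept probes of each gene that median was -0.22. The broader insulin receptor signalling list of 50 measured genes had the same higher gene, Socs3, and the same 2 lower genes, and its median was -0.08, where that of all genes was -0.05. Cbl, an adaptor and ubiquitin ligase of receptor tyrosine kinases, lay at 12.14 with PBS and 10.42 with MCSE. Pik3r1, the regulatory subunit of PI 3-kinase, lay at 12.34 and 11.29. Insr, the insulin receptor, lay at 11.94 and 11.22 (-0.72), and Ptpn1, the phosphatase that turns it off, at 11.48 and 10.89, with a second probe at 8.99 and 9.40. Among the kinases downstream and their substrate, Akt1 was at 0.54, Akt2 at 0.02, Gsk3b at -0.18 and Tbc1d1 at 0.24. Slc2a4, which encodes GLUT4, lay at 13.22 and 13.05, and Slc2a1, the basal glucose transporter, at 9.12 and 10.09 (0.97). Irs1 and the brightest probe of Tbc1d4 were not above the filter.

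Handling of glucose showed 2 of 35 genes higher and 0 lower, with a median of -0.08. Eno3, the muscle enolase of glycolysis, lay at 14.36 with PBS and 15.91 with MCSE, and its dim second probe at 8.24 and 8.29. Ugp2, which makes UDP-glucose for glycogen, lay at 12.12 and 13.40. Hk2, the insulin-induced hexokinase, was at -0.47. Pdk4, the kinase that shuts pyruvate dehydrogenase in fasting, lay at 14.50 and 13.70, within 2-fold. Pdha1, a subunit of pyruvate dehydrogenase itself, lay at 13.81 and 12.34, and Pcx, pyruvate carboxylase, at 12.78 and 11.49. In the pyruvate dehydrogenase and TCA cycle list as a whole, 1 of 32 genes was higher, Aco1, the cytosolic aconitase (9.31 and 10.61), and 3 were lower, namely Pdha1, Pcx and Cs. Cs, citrate synthase, lay at the floor on the MCSE array and is taken up with the steepest probes. Of the 30 genes above the median on both arrays, 1 was higher and 2 lower.

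Respiratory chain genes had a median of 0.07 over 63 genes, with 1 higher and 4 lower, so the lower ones were single genes within a list that lay close to 0. Ndufb9, a complex I subunit, lay at 13.07 with PBS and 10.07 with MCSE, and Ndufb3, of the same complex, at 12.85 and 11.59. Cox5a, of complex IV, lay at 14.60 and 12.95. The subunits of the ATP synthase head parted: Atp5b, the beta chain, lay at 15.34 and 12.37, and Atp5a1, the alpha chain, at 14.76 and 15.86. Alpha and beta chains are built into the enzyme in equal number. Of 62 mitochondrial ribosomal proteins, 1 was higher, Mrpl54 (11.66 and 12.78), with 43 above 0 and a median of 0.15.

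Fat metabolism differed little. Of 40 genes of fatty acid uptake and oxidation, 0 were higher and 1 was lower, Fabp3, the fatty acid carrier of slow and cardiac muscle, at 14.35 with PBS and 13.26 with MCSE. Its direction is the reverse of the slow-fibre contractile genes. Ucp3, the mitochondrial uncoupling protein of muscle, was at -0.89 and Ppargc1a, a coactivator of mitochondrial genes, at -0.65 and -0.52 on its probes. Of 35 genes of lipid synthesis and storage, Adfp (now Plin2), which coats lipid droplets, was higher at 9.97 and 11.19, and Insig1, the sterol-sensing brake of lipid synthesis, lower at 10.13 and 8.68. Of the 33 above the median on both arrays, 1 was higher and 0 lower. Among creatine, adenylate and purine genes, Adk, adenosine kinase, lay at 12.38 and 11.31 and on its second probe at 11.50 and 11.36. Ampd3, an AMP deaminase, lay at 10.40 and 11.65 on the brighter probe but at 11.08 and the floor on the other, so its direction depends on the probe, and their mean was -1.04.

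Clock genes leaned towards PBS. Of 19 measured, 0 were higher and 1 lower, the median being -0.35 and 15 below 0. With the mean over the kept probes of each gene this median was -0.23. Dbp, an output factor of the clock, lay at 11.88 with PBS and 10.51 with MCSE. Per2 (-0.72), Nfil3 (-0.71), Usp2 (-0.70) and Csnk1d (-0.61) were also on the lower side but within 2-fold, while Per3 (0.86) and Nr1d1 (0.76) were on the upper side. On second kept probes Csnk1d was at -0.63 and Per3 at -0.37, so the side of Per3 depends on the probe. The glucocorticoid and fasting list held 2 lower genes of 20, Ddit4 and Errfi1, of which Ddit4 alone was above the median on both arrays. Errfi1, a feedback inhibitor of the EGF receptor, lay at 9.95 and 8.80, with a second kept probe at 9.01 and 9.02. Klf9, a glucocorticoid target, was at -0.94. Hours of sampling are not given per mouse beyond the 4 h after glucose, and a difference in time of day was not tested.

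Of 39 extracellular matrix genes, 3 were higher and 1 lower, with a median of 0.13, and of the 38 above the median on both arrays 2 were higher and 1 lower. Spp1, osteopontin, lay at 8.28 with PBS and 9.97 with MCSE, passing the filter on the MCSE array only. Col5a1 and Col5a2, the chains of the collagen that seeds fibrils, lay at 10.003 and 11.29 and at 10.73 and 11.93, with a second Col5a2 probe at 10.25 and 10.66. Fmod, fibromodulin of tendon, lay at 11.98 and 9.95. In the tendon marker list of 8 genes, 3 were lower and 1 higher, with a median of -0.44. The 8 genes summed to 24033 with PBS and 12634 with MCSE (0.53), a difference set mainly by Thbs4. Of the 5 tendon genes above the median on both arrays, 0 were higher and 2 lower, with a median of -0.12. Thbs4 lay at 13.76 and 11.38 and Kera at 9.99 and 8.27, while Comp, a cartilage and tendon matrix protein that was above the median with MCSE only, lay at 8.74 and 11.68 and the tendon regulators Scx (0.33) and Tnmd (0.38) differed little.

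Among signalling genes, Dll4, a Notch ligand of vessels, lay at 12.48 with PBS and 9.68 with MCSE, with a dim second probe at 8.14 and 8.30. Notch1, its receptor, was at -0.79. Dkk2, a secreted Wnt inhibitor, lay at 9.84 and 8.73, and Lef1, a Wnt-regulated factor, at 10.79 and 11.95. These made 1 higher and 2 lower of 26 Wnt and Notch genes, or 1 and 1 of the 23 above the median on both arrays. Smad7, the inhibitor of TGF-beta signalling, lay at 10.51 and 11.55 and was alone past 2-fold of 23 genes of that pathway. Fgf1 lay at 10.68 and 11.88, 1 of 24 vascular growth genes. Among genes above the median on both arrays, cell cycle genes gave 1 of 19 higher, apoptosis genes 0 of 17 and ion pumps 0 of 16. With either array, cell cycle genes gave 2 of 23 higher, Top2a (7.90 and 9.57) and Mcm5 (9.50 and 10.56), apoptosis genes 1 of 21, Bid (8.18 and 9.34), and ion pumps 1 of 18, Slc4a4 (7.97 and 9.44). Fmo5, a flavin monooxygenase rich in liver, lay at 9.32 and 11.66 and on a dim probe at 8.27 and 8.22.

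Cytoskeletal genes went both ways, 3 of 34 higher and 4 lower, or 3 and 3 of the 33 above the median on both arrays. The tubulins Tuba1c (9.33 and 10.88) and Tubb6 (11.69 and 13.08) and the myosin light chain 2900073G15Rik (now Myl12a, 9.29 and 10.55) were higher. Flna, the filamin of non-muscle cells, lay at 13.19 and 10.84, opposite to the brightest probe of its muscle relative Flnc. Cobl, an actin nucleator, lay at 12.57 and 9.31, with a dim second probe at 8.31 and 8.25. Pfn2 lay at 12.97 and 11.76 and Mapt at 9.97 and 8.83. Splicing and RNA-binding genes leaned down, with 2 of 31 lower, 0 higher and a median of -0.25: Rbm5 lay at 11.12 and 9.07 and A2bp1 (now Rbfox1), a muscle and neuron splicing factor, at 14.17 and 12.93. Mbnl1, another such factor, was at -0.95. Eif4g1, a scaffold of translation initiation, lay at 12.87 and 11.83, 1 of 49 translation genes. Amino acid metabolism (0 of 29), cytosolic ribosomal proteins (0 of 15), histones (0 of 8) and myokines (0 of 28) had no gene past 2-fold.

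**Figure D3:**
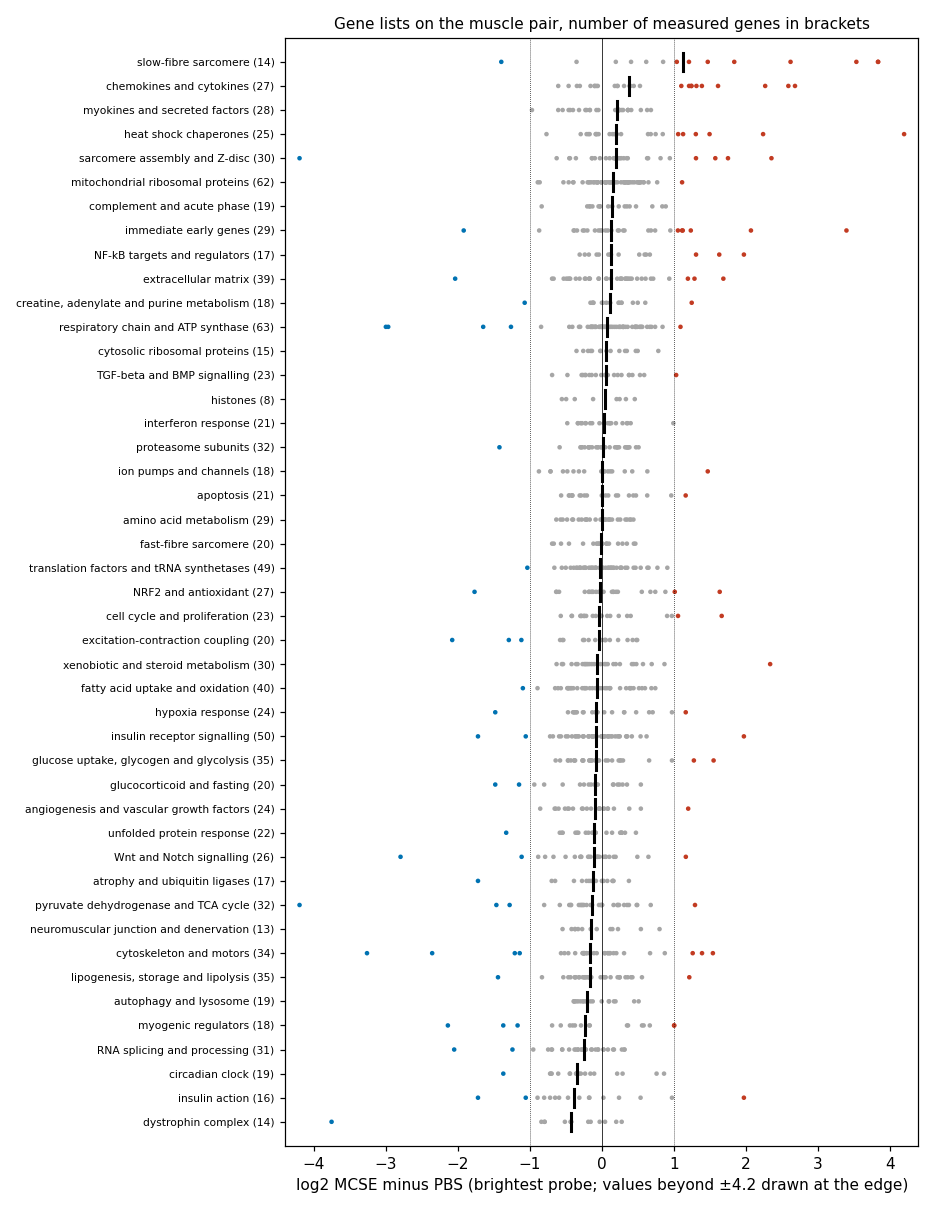
Log2 MCSE minus PBS (x axis) of every measured gene in each of the 45 pathway lists (y axis, number measured in brackets), by brightest probe, with a black bar at the list median; red and blue points are at least 2-fold higher and lower. The slow-fibre median of 1.13 and the chemokine median of 0.38 lie at the top and the dystrophin complex median of -0.43 at the bottom, and the other medians lie closer to 0 than 0.4.

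Second probes show how far probes of the same gene gave the same difference. Of 1504 genes with at least 2 kept probes, 5 (0.332%) were 2-fold higher on every kept probe and 2 (0.133%) were lower on every one. Sertad2, a transcriptional coregulator, was lower on 3 probes, at 10.99 and 8.87, at 10.47 and 8.74, and at 9.84 and 8.42. Tns1, tensin 1 of focal adhesions, was lower on both kept probes, at 11.53 and 10.06 and at 11.43 and 9.83, and another, dim probe gave -0.10. Slc27a2, a fatty acid transport protein of liver and kidney, lay at 8.37 and 10.004 and at 8.74 and 9.97, and its brighter probe at 14.23 and 15.01 on the liver-labelled pair. Fbp1, the gluconeogenic fructose bisphosphatase of the same organs, lay at 8.93 and 10.06 and at 8.26 and 9.41, against 14.17 and 14.79 on that pair for its brighter probe. Cd53, a tetraspanin of leukocytes, lay at 9.27 and 10.41 and at 8.06 and 9.59. Ppp1r12b, a regulatory subunit of myosin phosphatase, lay at 9.34 and 10.63 and at 8.01 and 9.50, and Kif3a, a kinesin motor, at 8.89 and 10.42 and at 9.05 and 10.18, with another, dim probe at 8.06 and 7.96. For Slc27a2, Fbp1 and Sertad2 every one of these probes passed the filter through 1 array only, and Cd53, Ppp1r12b and Kif3a each have such a probe, so the filter fixed the direction there. Among probes above the median on both arrays, 2 genes were past 2-fold on every probe. They were Tns1 and Nxnl1, a nucleoredoxin-like gene named after its values were seen, at 11.004 and 12.31 and at 10.27 and 12.05, whose dimmer probe lay at 8.98 and 8.89. The slow-fibre list had 1 gene with 2 or more kept probes, and the chemokine and heat shock lists had 2 each.

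At 1.5-fold on every kept probe, 15 genes were higher and 25 lower. The higher ones included the chaperone Hsp90aa1, Cyr61 and Ndrg1, a hypoxia and stress gene. The lower ones included Dag1 and Jph2 of the membrane lists above, Csnk1d and Klf9, and Ppp3cb, a catalytic subunit of calcineurin. The second probes were read against their background, since over all 1504 genes 43.0% of second probes lay above 0. Where the brighter probe was 2-fold lower (33 genes), the second lay below 0 in 25 (75.8%), and where it was 2-fold higher (47 genes), the second lay above 0 in 26 (55.3%). Across genes, which are not independent, the first and second probes correlated at 0.14, and at 0.20 over the 419 genes bright on both probes. In 4 genes 1 probe was 2-fold higher and another 2-fold lower: Acta2, Ampd3, G3bp2 and Ttn. The 6 kept probes of Ttn, titin, ran from -1.39 to 1.58, and the 4 of Acta2, smooth muscle actin, from -2.86 to 1.85, so a value for either gene depends on the probe taken.

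**Figure D4:**
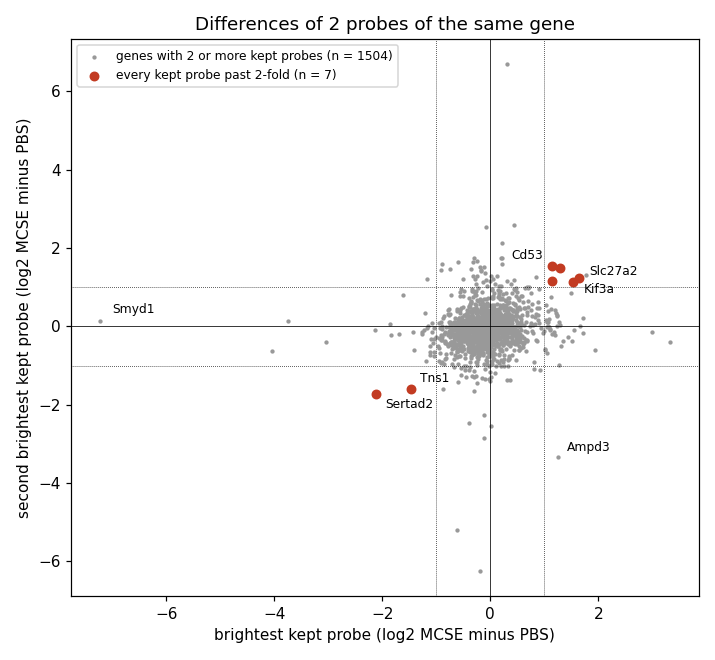
Difference (log2 MCSE minus PBS) of the brightest kept probe (x axis) and of the second brightest (y axis) for the 1504 genes with 2 or more kept probes; dotted lines mark 2-fold and red points the 7 genes past it on every kept probe. Steep differences on 1 axis mostly lie near 0 on the other, as for Smyd1 at the left, and Ampd3 is opposite on its probes.

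Many of the steepest differences came from probes bright on a single array of the series, though not that of Smyd1, the steepest of all. Of the kept probes, 11 lay 16-fold or more above PBS with MCSE and 16 lay as far below. All 11 of the higher ones were also at least 4-fold brighter on the MCSE muscle array than on each of the 5 other arrays, and 12 of the 16 lower ones were so on the PBS muscle array. Neurog2 and Atoh1 are proneural transcription factors not known as muscle genes. Neurog2 lay at 15.04 with MCSE and at 8.04 with PBS, and at 8.42 to 9.33 on the arrays of other labels. Atoh1 lay at 14.02 with MCSE and within 0.02 of the floor on every other array. Sgcz, zeta-sarcoglycan, lay at 13.11 with MCSE and at the floor on all 5 others. Olfr978, an olfactory receptor, lay at 8.51 and 15.16, and the predicted gene 1700037C18Rik at 8.47 and 15.40, its second probe being dim on both arrays. Upk3b, an uroplakin of mesothelium, lay at 8.39 and 15.08 on this probe and at 11.69 and 12.002 on its brighter one. Hspa1b and Ube4b (10.20 and 14.50), a ubiquitin chain elongation factor, completed the named ones. On the arrays of other labels Hspa1b lay at 11.28 and 11.39 with MCSE and at 9.52 and 9.06 with PBS.

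On the PBS side the same pattern was seen. Dhodh, a mitochondrial enzyme of pyrimidine synthesis, lay at 15.22 with PBS and 8.99 with MCSE on 1 probe and at 9.86 and 9.66 on its other. Nrcam, a neural adhesion molecule, lay at 13.85 and 8.66 and on its other probe at 10.66 and 10.04. Kctd20 lay at 15.99 and 11.94 and on a second kept probe at 10.36 and 9.74, and the predicted gene 6030498E09Rik at 13.01 and 8.75. Smyd1, Cs and Bzw2 were of another kind, with the MCSE muscle array at the floor. Smyd1 lay at 14.97 with PBS, at the floor with MCSE and at 10.93 to 14.23 on the other arrays, while its second probe lay at 13.83 and 13.97 in muscle. Cs lay at 14.33 with PBS and at 13.04 to 13.19 on 3 of the arrays with other labels, and no second probe was kept. Bzw2, a translation regulator, lay at 12.46 with PBS. These genes, singled out after their values were seen, rest on 1 spot on 1 array each.

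**Figure D5:**
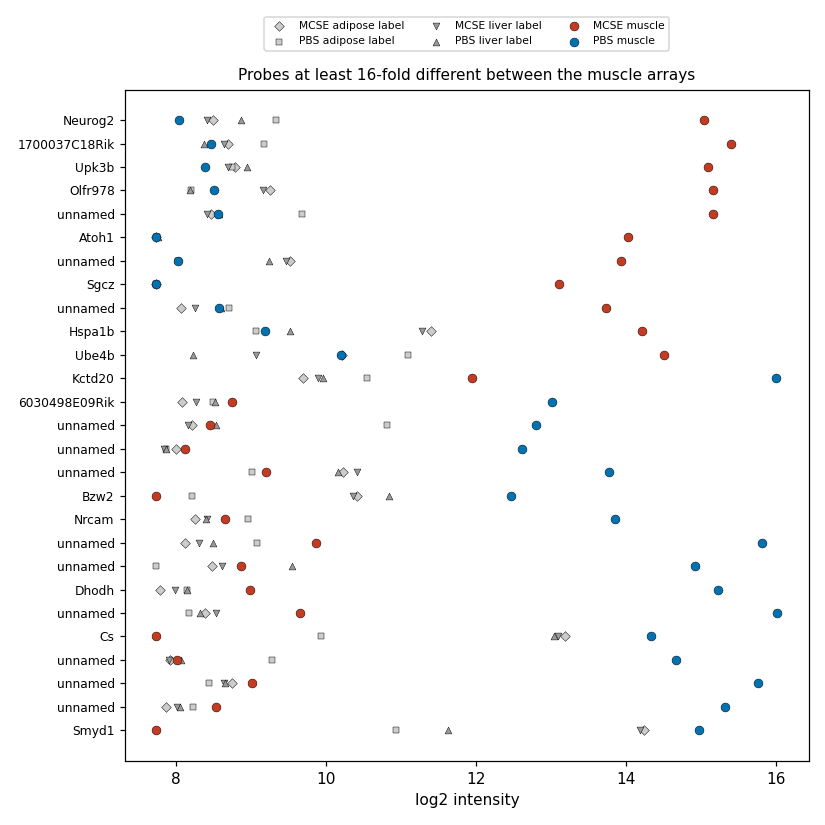
Log2 intensity (x axis) of the 27 probes at least 16-fold different between the muscle arrays (y axis, by gene symbol or unnamed), on the PBS muscle array (blue), the MCSE muscle array (red) and the 4 arrays of other labels (grey). The red points lie alone at the right in the upper 11 probes and the blue points at the right in the lower 16, while Smyd1 and Cs are bright on grey arrays as well.

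Further named genes among the 10 steepest each way, where both arrays reached their lower quartile, were Serpinb9g, a protease inhibitor (9.33 with PBS and 12.79 with MCSE), and Alkbh2, a DNA repair enzyme (8.26 and 11.70), on the higher side. On the lower side were Clptm1l (14.87 and 11.02) and the cDNA gene BC030500 (12.69 and 8.84). The scatter grew with brightness. With the kept probes in 5 equal bins, the SD of the difference was 0.48 in the dimmest bin and 0.68 in the brightest. The share of lower probes was 0.81% in the dimmest and 2.92% in the brightest, while that of higher probes lay between 3.27% and 5.01% in all 5.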

How the data were processed

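Total RNA of muscle was extracted with a column kit, amplified, given a Cy5 label and read on one-colour arrays, as the labels' protocols state. The authors deposited a table of intensity values on a linear scale for 6 arrays. The submitters' processing notes name limma, with no version or role; background correction, normalization and genome build are not given in the sources used here. Intensities below the 5th percentile of all values were set to that value before log2. The deposited scale was kept, since both medians were equal. Probes at or above the array median on either muscle array were kept, and a gene was represented by its brightest probe over the 6 arrays. Symbols are those of the platform annotation and can be old.

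Members and lists were chosen with earlier results of these data known. Of 1699 list symbols, 1461 were on the array, 62 through a synonym. Named genes were those past 2-fold on every kept probe, the 10 steepest each way, up to 6 members past 2-fold per pathway list, and the insulin action list; 126 in all. Others are named as examples below 2-fold. With 1 array per group no test was made. SD per probe came from the gap between 2 kept probes of a gene. The counting code was run on simulated data with less noise than these arrays, so that run says nothing of how reliable the calls are. Alternatives were other floors, filters, scalings, probe choices and thresholds. All 6 columns matched a sample (0 unmatched). Python 3.11.15, pandas 2.3.3, numpy 2.4.6, statsmodels 0.14.6 and matplotlib 3.10.9 were used.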

Additional observations from a re-analysis of the deposited data

Results flagged for a closer look

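Among the 126 named genes, 6 passed 2-fold on the muscle pair and, on the same brightest probe, passed it oppositely with the liver label. Genes outside these 126 were not searched, and genes past 2-fold in the same direction on both pairs were not counted. With 1 array per group the difference between the pairs was not tested, and the liver-labelled arrays also carried kidney and fat-cell genes. In muscle Dll4 was at -2.80, and with the liver label at 1.30. Egr1 was at -1.92 and 3.33, Rbm5 at -2.05 and 1.40, and Smyd1 at -7.23 and 2.56, the other Smyd1 probe being at 0.14 in muscle. Hsp90aa1 was at 1.497 in muscle, against -1.03 with the liver label, and Myoz2 at 1.47 and -1.24.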

How the results depend on the processing

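Each count and list median was recomputed under the alternatives. The 709 higher probes became 448 with probes kept on both arrays, 1670 at 1.5-fold and 210 at 3-fold, and the 324 lower probes 1306 and 90 at those thresholds. Of the 418 higher and 201 lower genes, 5 and 2 were left when a gene needed 2 or more kept probes and took the one nearest to 0. The 7 genes past 2-fold on every kept probe became 40 at 1.5-fold and 2 with probes kept on both arrays. The chemokine median went from 0.38 to -0.065 with probes kept on both arrays, an alternative that leaves fewer genes, and Ampd3 from 1.25 to -1.04 as the mean of its probes. Quantile normalization, removal of a trend with brightness, and 32 added in place of the floor moved 0 of 62 list medians by more than the SD per probe over the root of the list's size, and 0 of 124 named genes by more than that SD. With the mean over the kept probes of a gene, 4 list medians and 11 named genes moved further than that, Ampd3 aside. With probes kept on both arrays 3 list medians did, chemokines aside. The number of arrays limits the precision.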
